A study of Rattus norvegicus with 14 samples.

Results

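The transcripts described here are 10 genes that are typical of the neurons and glia of the spinal cord and are not defining genes of a dorsal root ganglion: Mog, Mobp, Opalin, Aqp4, Slc32a1, Gad1, Gad2, Slc6a5, Slc5a7 and Chat. They were found by their gene symbol in the deposited tables, each matched 1 row, and they are 10 of 30562 genes. The 14 RNA libraries came from lumbar dorsal root ganglia (levels L2 to L5), 1 from each side of 7 rats, all of them male and wild-type. The 4 groups were the surgical side at 6 weeks (rats A, B and E), the control side at 6 weeks (the same 3 rats), the surgical side at 8 weeks (rats C, D, G and H) and the control side at 8 weeks (the same 4 rats). On the surgical side a graft of the extensor digitorum longus, a hindlimb muscle, had been joined to the saphenous nerve, and the control side was the other, unoperated hindlimb of the same rat. The control is therefore a ganglion of an operated animal, and the study compared ganglia upstream of a nerve and muscle graft with unoperated ones. The labels did not say how the roots were trimmed or whether ganglia of a side were pooled.

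Central myelin is made by oligodendrocytes and peripheral myelin by Schwann cells, and the border between them lies on the dorsal root close to the cord, so the central end of a root holds oligodendrocytes and astrocytes while the ganglion itself holds Schwann cells and satellite glia. Mog, Mobp and Opalin encode proteins of central myelin and of mature oligodendrocytes, and Aqp4 encodes the water channel of astrocytes. Inhibitory neurons of the cord release GABA, glycine or both: Gad1 and Gad2 encode the enzymes that make GABA, Slc6a5 the plasma membrane transporter that supplies glycine to glycinergic terminals, and Slc32a1 the vesicular transporter that loads both. Motor neurons, preganglionic neurons and some interneurons of the cord use acetylcholine, for which Chat encodes the synthesising enzyme and Slc5a7 the choline transporter that feeds it. In this bulk tissue, fewer cells of a type and less RNA per cell cannot be told apart.

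Promoters of 9 of the 10 genes were found in RefSeq on GRCr8, that of Mog was not, and 4 are shown because they belong to 2 central myelin genes (Mobp and Opalin) and to the 2 members whose highest library stood least far above the median of the others (Gad1 and Slc5a7). Each line gives the 250 bases before the annotated start, 5′ to 3′ on the strand of the gene. They lie at chr8:128746982-128747231 on the plus strand for Mobp, at chr1:249858191-249858440 on the minus strand for Opalin, at chr3:75777202-75777451 on the plus strand for Gad1 and at chr9:7953510-7953759 on the minus strand for Slc5a7. Capitals mark matches on either strand to 3 motifs, none of which overlapped. ACAAAG is the core that Sox factors bind and reads CTTTGT on the opposite strand. Another motif, CAGCTG, belongs to the E-boxes of basic helix-loop-helix factors. The last, TATAAA, is the TATA box.
Mobp: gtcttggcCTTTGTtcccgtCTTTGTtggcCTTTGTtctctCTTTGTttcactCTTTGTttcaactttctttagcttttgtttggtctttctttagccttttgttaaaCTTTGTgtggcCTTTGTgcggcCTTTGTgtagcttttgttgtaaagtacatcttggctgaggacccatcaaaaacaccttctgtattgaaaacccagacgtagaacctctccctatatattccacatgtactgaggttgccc
Opalin: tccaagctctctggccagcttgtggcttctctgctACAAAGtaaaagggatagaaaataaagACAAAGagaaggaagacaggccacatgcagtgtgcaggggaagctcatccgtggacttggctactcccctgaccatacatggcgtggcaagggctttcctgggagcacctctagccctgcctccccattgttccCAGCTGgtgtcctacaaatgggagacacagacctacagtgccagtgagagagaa
Gad1: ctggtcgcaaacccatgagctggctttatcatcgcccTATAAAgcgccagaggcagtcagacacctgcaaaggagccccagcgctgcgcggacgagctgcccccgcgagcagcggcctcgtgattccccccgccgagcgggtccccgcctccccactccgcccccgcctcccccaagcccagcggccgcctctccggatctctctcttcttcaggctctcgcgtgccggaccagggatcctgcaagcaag
Slc5a7: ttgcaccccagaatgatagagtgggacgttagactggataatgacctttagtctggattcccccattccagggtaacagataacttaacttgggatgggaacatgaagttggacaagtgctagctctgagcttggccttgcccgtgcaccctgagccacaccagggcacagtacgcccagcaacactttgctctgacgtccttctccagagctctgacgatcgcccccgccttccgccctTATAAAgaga

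The Mobp promoter held 8 matches to ACAAAG, a number reached by 0.00598% of 33465 promoters of the same length, and all of them lay in the distal part of the window, in a repetitive stretch rich in T. The Opalin promoter held 2 such matches, a number that 1.84% of promoters reached, and 1 match to CAGCTG. Gad1 held 1 match to TATAAA at 213 bases before the start, and Slc5a7 held 1 at 10 bases before it. Over all promoters 16.3% held at least 1 ACAAAG, 12% a CAGCTG and 12.9% a TATAAA. Matches to TGACGTCA (the cAMP response element, in 1.59% of promoters) and to TTCAGCACC (part of the site of the repressor REST, in 0.305%) were searched in the same way and were not in these 4 windows. A match is a string of letters and was not tested as a binding site.

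Levels are given in TPM, a unit scaled by transcript length and by library total, so that genes can be set beside each other. The surgical library of rat B at 6 weeks stood apart from the other 13, though least in Slc5a7, in the levels of the 10 transcripts. Their TPM summed to 831.2 in that library, against 1.77 to 16.4 in the others, and this sum was 113 times the median of the other 13. Every one of the 10 had its highest TPM there, and 9 of the 10 stood at least 10-fold above the median of the others. Over all 18365 genes that reached 1 TPM in some library, 9.02% had their highest value in this library and 1.99% stood at least 10-fold above the median of the others while at 1 TPM or more. Of the 10, 7 reached 1 TPM in that library only. The edgeR test described below is given with and without rat B, and the other test tools were not run without that rat.

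**Figure D1:**
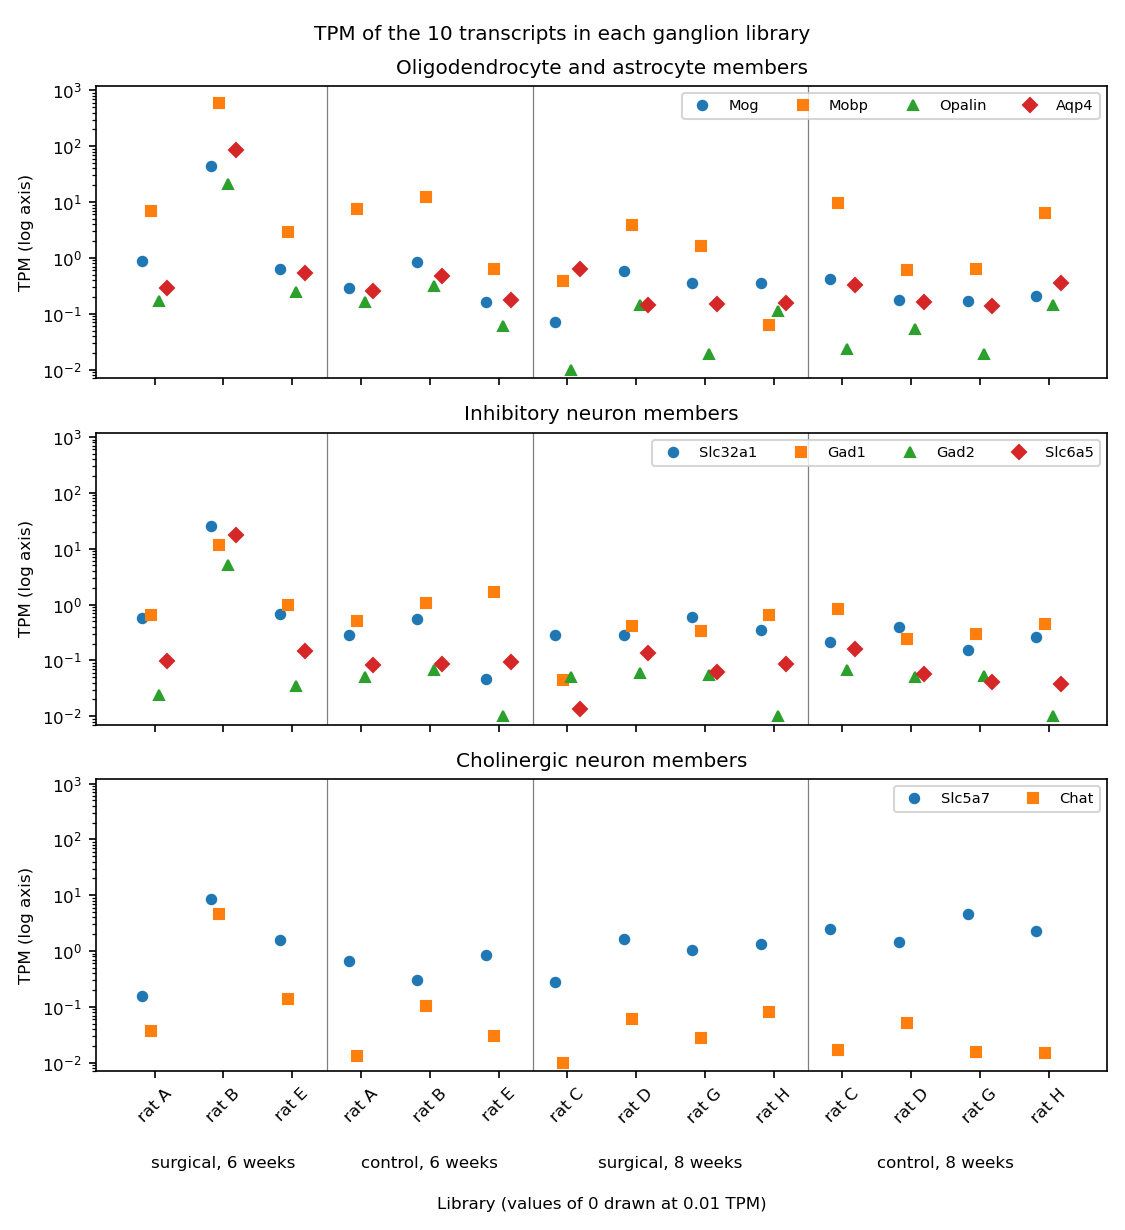
TPM of the 10 transcripts (log axis) in each of the 14 libraries, with a panel for glial, inhibitory and cholinergic members, surgical groups left of control groups at each time, and values of 0 drawn at 0.01. The surgical library of rat B at 6 weeks has the highest point for all 10 transcripts, with Mobp at 607 TPM, and Slc5a7 is the member that comes closest to it elsewhere, at 4.57 TPM.

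Among the central myelin genes, Mobp had 6.85, 607 and 2.86 TPM in the surgical libraries of rats A, B and E at 6 weeks, against 7.61, 12.6 and 0.623 TPM in the control libraries of the same rats. Mobp had 0.386, 3.89, 1.64 and 0.0630 TPM in the surgical libraries of rats C, D, G and H at 8 weeks, against 9.70, 0.601, 0.635 and 6.45 TPM in their controls. In the surgical library of rat B Mobp ranked 147th of all genes by TPM, with 14635 counts, and in the other 13 libraries it had 2 to 390 counts with both sides and both times overlapping. Mobp encodes a basic protein of compact central myelin.

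Mog, a surface protein of the outermost central myelin layer, had 0.878, 44.5 and 0.628 TPM in the surgical libraries of rats A, B and E, against 0.295, 0.833 and 0.165 TPM in their controls. At 8 weeks Mog had 0.0720, 0.575, 0.352 and 0.358 TPM in the surgical libraries of rats C, D, G and H, against 0.414, 0.178, 0.173 and 0.208 TPM in their controls. It was higher on the surgical side in all 3 rats at 6 weeks and in 3 of 4 at 8 weeks, with rat C in the other direction, and the groups overlapped at both times. Without rat B the surgical mean at 6 weeks was 0.753 TPM over 2 libraries.

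Opalin, a membrane glycoprotein of oligodendrocytes, had 0.167, 21.0 and 0.243 TPM in the surgical libraries of rats A, B and E, against 0.161, 0.312 and 0.0613 TPM in their controls. The 8-week values of Opalin were 0, 0.145, 0.0191 and 0.111 TPM in the surgical libraries of rats C, D, G and H, against 0.0235, 0.0528, 0.0188 and 0.144 TPM in their controls. The library of rat B held 1034 counts and no other library held more than 20, so the levels elsewhere rest on few reads. The 0 in the surgical library of rat C allows up to 3 counts, a limit that covers counting error only.

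The astrocyte water channel Aqp4 had 0.293, 85.7 and 0.527 TPM in the surgical libraries of rats A, B and E, against 0.255, 0.481 and 0.175 TPM in their controls. The 8-week values of Aqp4 were 0.638, 0.143, 0.148 and 0.153 TPM in the surgical libraries of rats C, D, G and H, against 0.329, 0.162, 0.139 and 0.359 TPM in their controls. Its ratio of 336 to the median of the others was the highest of the 10. Among those others the surgical library of rat C was highest at 0.638 TPM. The surgical library of rat E (0.527 TPM) and the control library of rat B (0.481 TPM) came next. Fast skeletal muscle fibres also make Aqp4. The 12 genes of a skeletal muscle list, all of which reached 1 TPM, summed to 35443 TPM in that library of rat C, against 73.2 to 6629 TPM in all other libraries, with Acta1, the actin of skeletal muscle, at 8560 TPM. Over the 13 libraries without the surgical library of rat B, Aqp4 and the mean of the muscle list had r = 0.68 and rho = 0.55, and r = 0.50 over 11 libraries without rat C surgical and rat H control, which lie farthest out on the muscle list. Over the same 13 libraries Aqp4 had r = 0.75 and rho = 0.73 with the microglia list and r = -0.69 and rho = -0.75 with the satellite glia list. The muscle list summed to 125.8 TPM in the surgical library of rat B, of which Pvalb made 80.4 TPM. The part of muscle or immune cell RNA in the Aqp4 level of rat C was not tested.

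Of the inhibitory genes, Slc32a1, the vesicular GABA and glycine transporter, had 0.575, 25.2 and 0.687 TPM in the surgical libraries of rats A, B and E, against 0.285, 0.553 and 0.0467 TPM in their controls. At 8 weeks it had 0.285, 0.281, 0.590 and 0.355 TPM in the surgical libraries of rats C, D, G and H, against 0.215, 0.402, 0.150 and 0.259 TPM in their controls. At 6 weeks each surgical library was above each control library, narrowly for rat A against the control of rat B, and at 8 weeks the groups overlapped. The counts outside the surgical library of rat B ran from 2 to 31.

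Slc6a5, the glycine transporter, had 0.0959, 17.6 and 0.146 TPM in the surgical libraries of rats A, B and E, against 0.0831, 0.0876 and 0.0951 TPM in their controls. At 8 weeks it had 0.0135, 0.134, 0.0617 and 0.0874 TPM in the surgical libraries of rats C, D, G and H, against 0.160, 0.0568, 0.0404 and 0.0381 TPM in their controls. The groups did not overlap at 6 weeks, although rat A surgical was above the highest control by less than 0.01 TPM, and they overlapped at 8 weeks. Slc32a1 and Slc6a5 were the 2 members with each surgical library above each control library at 6 weeks, which 4.72% of the 17035 tested genes also showed, and no member showed it at 8 weeks, where 0.211% of genes did. No member had each surgical library below each control library, as 1.25% of genes had at 6 weeks and 1.61% at 8 weeks.

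Gad1, which makes most of the GABA in neurons, had 10 or more counts in 13 of the 14 libraries. It had 0.637, 11.5 and 0.988 TPM in the surgical libraries of rats A, B and E, against 0.496, 1.04 and 1.67 TPM in their controls. The 8-week values of Gad1 were 0.0443, 0.415, 0.333 and 0.637 TPM in the surgical libraries of rats C, D, G and H, against 0.848, 0.245, 0.294 and 0.444 TPM in their controls. The value of rat B surgical was 23.2 times the median of the others, the second lowest ratio of the 10, and 6.87 times the control library of rat E, the highest of the others.

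Gad2, the other enzyme that makes GABA, had 0.0238, 5.20 and 0.0342 TPM in the surgical libraries of rats A, B and E, against 0.0507, 0.0665 and 0 TPM in their controls. In the 8 libraries at 8 weeks it ran from 0 to 0.0595 TPM on the surgical side and from 0 to 0.0667 TPM on the control side. It had 180 counts in rat B surgical and 0 to 3 counts in each other library, 19 in all. As a share of all counts this is 135 times the level of the other 13 libraries summed, with an exact 95% interval of 84.1 to 230 that covers counting error only. The zeros in the control library of rat E and both libraries of rat H allow up to 3 counts each.

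The cholinergic genes differed from each other. Chat, the acetylcholine synthesising enzyme, had 0.0366, 4.63 and 0.140 TPM in the surgical libraries of rats A, B and E, against 0.0130, 0.103 and 0.0298 TPM in their controls. At 8 weeks it ran from 0 to 0.0810 TPM on the surgical side and from 0.0151 to 0.0514 TPM on the control side. It had 312 counts in rat B surgical and 0 to 9 in each other library, 41 in all, which is 109 times as a share of all counts with an exact 95% interval of 78.3 to 154 for counting error. Slc18a3, which lies inside the Chat gene in RefSeq, was looked up by its gene symbol and was not found. Reads of the 2 genes may not be separable.

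Slc5a7, the choline transporter, had 0.158, 8.47 and 1.55 TPM in the surgical libraries of rats A, B and E, against 0.675, 0.304 and 0.858 TPM in their controls. The 8-week values of Slc5a7 were 0.281, 1.65, 1.03 and 1.35 TPM in the surgical libraries of rats C, D, G and H, against 2.44, 1.47, 4.57 and 2.29 TPM in their controls. The library of rat B was highest again, but only 1.85 times the control library of rat G and 6.26 times the median of the others, the lowest ratio of the 10. Each other library held 18 to 463 counts, so this member was measured in all 14.

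The share of the level in rat B surgical that the other 13 libraries reached thus separated 2 members from the other 8. It ran from 1.87% to 54.0% for Slc5a7 and from 0.385% to 14.5% for Gad1, while no other member passed 3.03%, the value of Chat in the surgical library of rat E. Ratios between members also varied among the libraries. Mobp stood at 13.6 times Mog in TPM in rat B surgical, against 0.176 to 31.0 times in the others, and Slc5a7 at 1.83 times Chat in rat B surgical, against at least 2.96 times in each other library with Chat counts. Gad1 stood at 2.21 times Gad2 in rat B surgical, against 0.874 to 28.9 times in the 10 other libraries with Gad2 counts, all of which rest on 1 to 3 Gad2 counts. The order of the members in rat B surgical was Mobp, Aqp4, Mog, Slc32a1, Opalin, Slc6a5, Gad1, Slc5a7, Gad2 and Chat by TPM, and its neighbours cannot be compared against a spread because it is a single library.

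**Figure D2:**
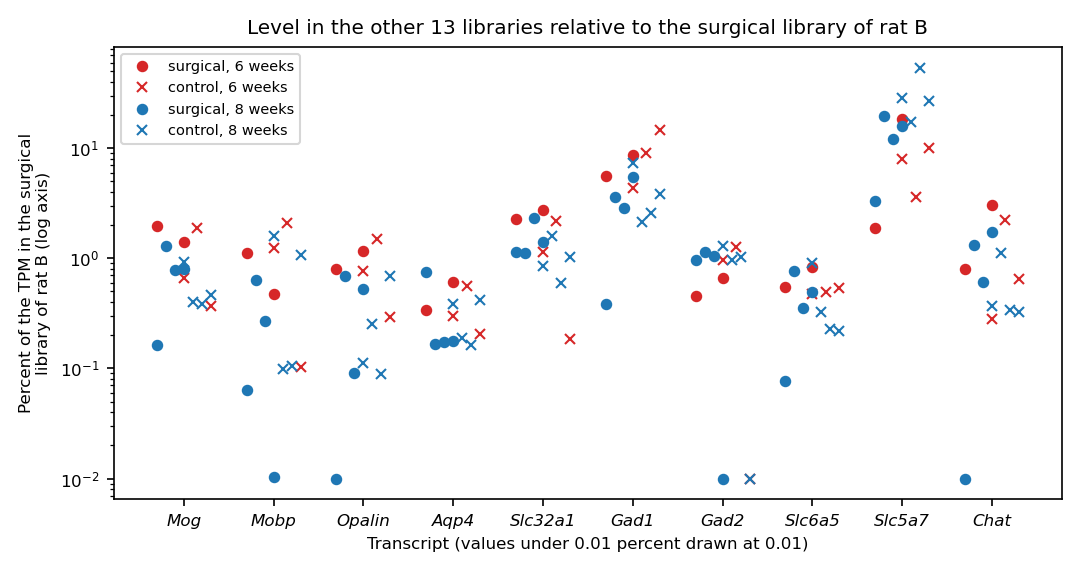
TPM of each transcript in the other 13 libraries as a percent of its TPM in the surgical library of rat B (log axis), with circles for surgical and crosses for control libraries and values under 0.01 drawn at 0.01. Slc5a7 reaches 54.0% and Gad1 14.5%, and the other 8 transcripts stay at or below 3.03%.

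Marker lists for cell types of the cord, its coverings, the ganglion and muscle were used to describe the surgical library of rat B further. They were drawn up with earlier results of these data known. Oligodendrocyte genes had their highest TPM there in 17 of 20 cases and astrocyte genes in 13 of 16, with median ratios to the other 13 libraries of 5.48 and 4.54, against 0.947 over all genes that reached 1 TPM. Those at least 10-fold above the median of the others were 7 of the 20 oligodendrocyte genes, 6 of the 16 astrocyte genes, 5 of the 13 inhibitory neuron genes, 2 of 7 ependymal and meningeal genes, 1 of 8 microglial genes and 1 of 12 excitatory dorsal horn genes, counted over all measured genes of each list. Among genes that reached 1 TPM in some other library, the counts were 2 of 15 oligodendrocyte, 4 of 14 astrocyte, 1 of 4 inhibitory, 0 of 5 ependymal and meningeal, 0 of 7 microglial and 1 of 10 excitatory genes. Of these same genes, 12 of 15 oligodendrocyte and 11 of 14 astrocyte genes had their highest TPM in rat B surgical. Klk6, a protease of mature oligodendrocytes, had 30.8 TPM in rat B surgical and at most 0.824 TPM elsewhere, with 5 of the other 13 libraries at 0. Olig1 and Olig2, transcription factors of the oligodendrocyte lineage, had 40.8 and 6.15 TPM in rat B surgical, against at most 0.644 and 0.162 TPM elsewhere. Several oligodendrocyte genes are also made by Schwann cells, and these stood less far apart: Mbp had 2420 TPM in rat B surgical and up to 2064 TPM elsewhere, and Cnp had 180.6 TPM and up to 118.0 TPM. Cldn11, the tight junction protein of central myelin, had 103.9 TPM in rat B surgical and reached 119.2 TPM in the control library of rat H. In that control library Mobp, Mog and Opalin stood at 1.06%, 0.467% and 0.686% of their levels in rat B surgical.

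Astrocyte genes included Gfap, the intermediate filament of astrocytes, at 106.7 TPM in rat B surgical and at most 17.6 TPM elsewhere, and Agt, angiotensinogen, at 61.3 TPM and at most 6.68 TPM. Aldoc and Gpr37l1, which satellite glia also make, had 585 and 50.0 TPM in rat B surgical and up to 591 and 42.0 TPM elsewhere. Of the inhibitory neuron list, Glra1, a glycine receptor subunit, had 8.47 TPM in rat B surgical and at most 0.241 TPM elsewhere. Slc6a17 and Pnoc had 16.9 and 3.89 TPM in rat B surgical and up to 38.4 and 6.38 TPM elsewhere. The excitatory dorsal horn list had a median ratio of 0.98 over the 10 genes that reached 1 TPM, of which 2 were highest in this library. Its most abundant genes, Tlx3, Cbln2, Tac3 and Zic1, had 22.3, 18.3, 6.40 and 3.45 TPM in rat B surgical. Of these, Tac3 (at most 1.70 TPM elsewhere) was the only one highest there. Tlx3, Cbln2 and Zic1 had medians of 61.0, 20.9 and 6.12 TPM over the other 13 libraries, so they were not particular to the cord here. Lbx1 had 1.63 TPM in rat B surgical against a median of 0.143 TPM, but 7.19 TPM in rat C surgical. Whether RNA of excitatory cord neurons was present was not tested.

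Of the 11 measured genes of the wider cholinergic list, 3 were highest in rat B surgical and 1 was at least 10-fold above the median of the others. Among the 6 that reached 1 TPM in some library, 0 were at least 10-fold above it. The gene of the first count was Mnx1, a motor neuron transcription factor, with 0.864 TPM in rat B surgical and at most 0.221 TPM elsewhere. Lhx4, another transcription factor of motor neurons, had 0.933 TPM and at most 0.394 TPM, both being low levels. Chodl had 29.6 TPM in rat B surgical and at most 13.7 TPM elsewhere, whereas Ache, Mmp9 and Isl1, which ganglion cells also make, had 85.4, 53.3 and 9.44 TPM in rat B surgical and up to 219.7, 130.7 and 37.6 TPM elsewhere. The sympathetic neuron list had none of its 4 measurable genes highest in rat B surgical, with Chrna3 at 10.3 TPM and up to 45.3 TPM elsewhere. The ganglion sensory neuron list had none of its 16 genes highest there.

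The ganglion itself was present in every library. The peripherin gene Prph, a marker of sensory neurons, had 714 TPM in rat B surgical and 163 to 2315 TPM in the others. The other abundant neuronal genes of rat B surgical, Uchl1, Tubb3 and Nefh, had 1623, 1100 and 837 TPM, and the median ratio of the neuronal list to the other 13 libraries was 0.48. The median ratio was 0.62 for peripheral myelin, with Pmp22 and Pmp2 at 1025 and 271 TPM. For skeletal muscle it was 0.44, with Pvalb, Acta1, Mb and Tnnc2 at 80.4, 18.2, 7.82 and 6.31 TPM. Over the other 13 libraries Pvalb had a median of 184 TPM, against 17.4, 5.11 and 10.7 TPM for Acta1, Mb and Tnnc2. The part of muscle in the Pvalb level was not tested. The median ratio was 1.41 for satellite glia, with Apoe, Glul, Fabp7 and Kcnj10 at 2169, 387, 66.9 and 38.0 TPM. Microglial genes, which ganglion macrophages share, had a median ratio of 2.37, with Tmem119, P2ry12 and P2ry13 at 4.79, 4.19 and 3.40 TPM. Of the 8 genes, 7 were highest in rat B surgical, while Tmem119 reached 32.6 TPM in rat C surgical. Sall1, the 1 microglial gene at least 10-fold above the median of the others, had 2.21 TPM in rat B surgical and at most 0.445 TPM elsewhere. Of the coverings, Ccdc153, a gene of ciliated ependymal cells, had 4.89 TPM in rat B surgical and at most 0.675 TPM elsewhere, whereas the meningeal genes Ptgds, Rarres2 and Slc47a1 had 909, 49.0 and 4.30 TPM in rat B surgical and up to 14951, 173 and 59.2 TPM elsewhere. How RNA of central cell types came into this sample, from a root or from the cord, was not tested.

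**Figure D3:**
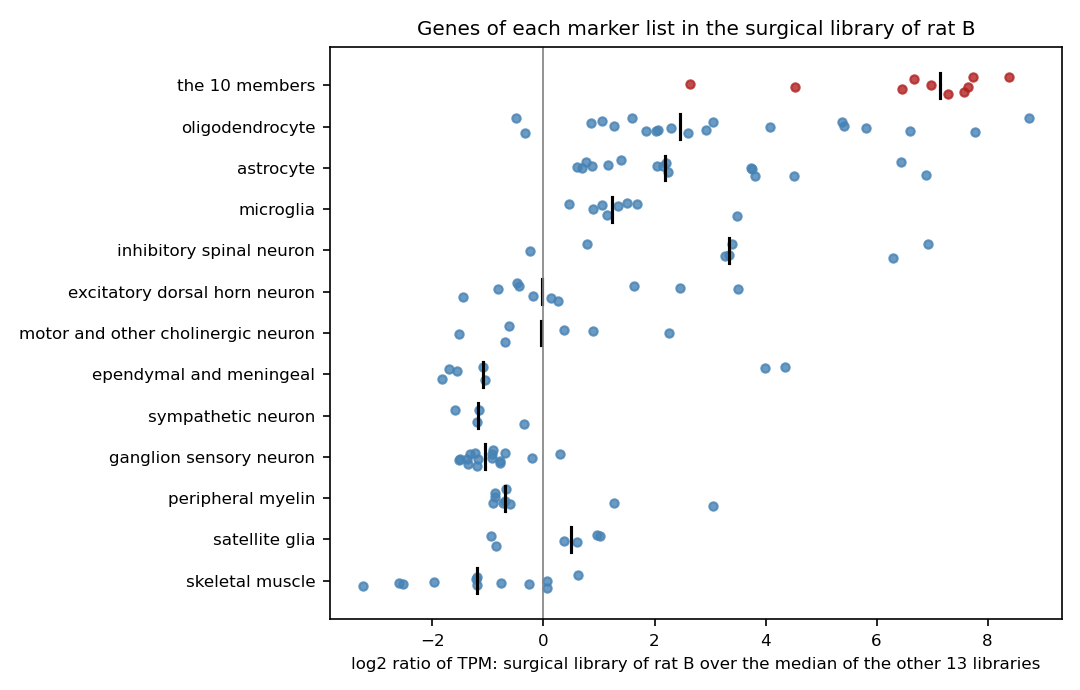
Log2 ratio of TPM in the surgical library of rat B over the median of the other 13 libraries for each gene of each marker list that reached 1 TPM, 1 point per gene, with a vertical bar at the median of the list. The 10 transcripts lie at ratios of 6.26 to 336, and the medians of the ganglion neuron and peripheral myelin lists lie below 1.

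The genes other than the members whose pattern was most like that of the 10 transcripts, marker list genes included, were ranked by Pearson's r between log2(TPM + 0.1) and the mean of the members. Over the 14 libraries they were Slc12a5 (r = 0.98), Olig2 (0.98), Glra1 (0.97), Mmel1 (0.97) and Fut9 (0.97). Slc12a5, the potassium chloride cotransporter of mature central neurons, had 30.9 TPM in rat B surgical and 0.113 to 0.548 TPM in the others. Without that library the same 5 genes had r of 0.70, 0.71, 0.67, 0.60 and 0.47 over 13 libraries, so 1 library made most of the likeness. The libraries form pairs from 7 rats and are not independent, so these values are descriptions.

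For the glial members the 5 most alike genes over 14 libraries were Olig2, Olig1, Pax2, Igsf1 and Slc12a5, with r of 0.95 to 0.98. For the inhibitory members they were Fut9, Slc12a5, Glra1, Mir150 and LOC120093502, with r of 0.98 to 0.99, of which the last 2 were listed at 0 in all other libraries. For the cholinergic members they were Slc25a18, Agt, Rnd2, Kcng4 and Pnma3, with r of 0.96 to 0.97. Without the surgical library of rat B the order changed. Fgf16 (r = 0.87), 3 copies of the signal recognition particle RNA (0.81 to 0.83) and Olig1 (0.81) were then most like all 10. The same ranking gave Klrd1, Pnrc2, Paxbp1, Otud1 and Il13ra2 for the glial members (0.85 to 0.92), and Hoxb2, Sh3gl3, Wdsub1, Prrt1 and Mmd for the cholinergic members (0.95 to 0.96). For the inhibitory members it gave 3 copies of the signal recognition particle RNA, LOC102552779 and LOC103691527 (0.85 to 0.89).

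Among the members themselves the 45 pairs had r of 0.33 to 0.98 with a median of 0.86 over 14 libraries. Over the 13 without rat B surgical they had r of -0.44 to 0.73 with a median of 0.27, and 13 pairs were below 0. Mobp and Mog had r = 0.60 and rho = 0.62 over these 13, and r = 0.49 over 11 without the surgical libraries of rats C and A, which lie farthest out in Mog. Slc5a7 had r = 0.87 and rho = 0.81 with the ganglion sensory neuron list, and r = 0.76 over 11 without rat A surgical and rat B control. It had r = 0.91 and rho = 0.93 with the excitatory dorsal horn list, r = 0.88 with satellite glia and r = 0.81 with the sympathetic list over the same 13 libraries, and r = -0.79 with microglia, so it was not tied to 1 list. Those 2 libraries had the lowest neuronal levels, with Prph at 163 and 257 TPM, and together with the surgical library of rat C they had the lowest 3 Slc5a7 values. Gad1 had r = 0.88 and rho = 0.91 with the peripheral myelin list, and r = 0.76 over 11 without rat C surgical and rat G control. It had r = 0.88 and rho = 0.78 with the oligodendrocyte list, which shares genes with peripheral myelin, and r = 0.81 with the inhibitory list. Slc6a5 and Mog had r = 0.78 and 0.76 with peripheral myelin, and r = 0.84 and 0.70 with the oligodendrocyte list. The surgical library of rat C, with the lowest sum of the peripheral myelin list at 1496 TPM, also had the lowest Gad1 level and the lowest Mog and Slc6a5 levels of all 14.

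**Figure D4:**
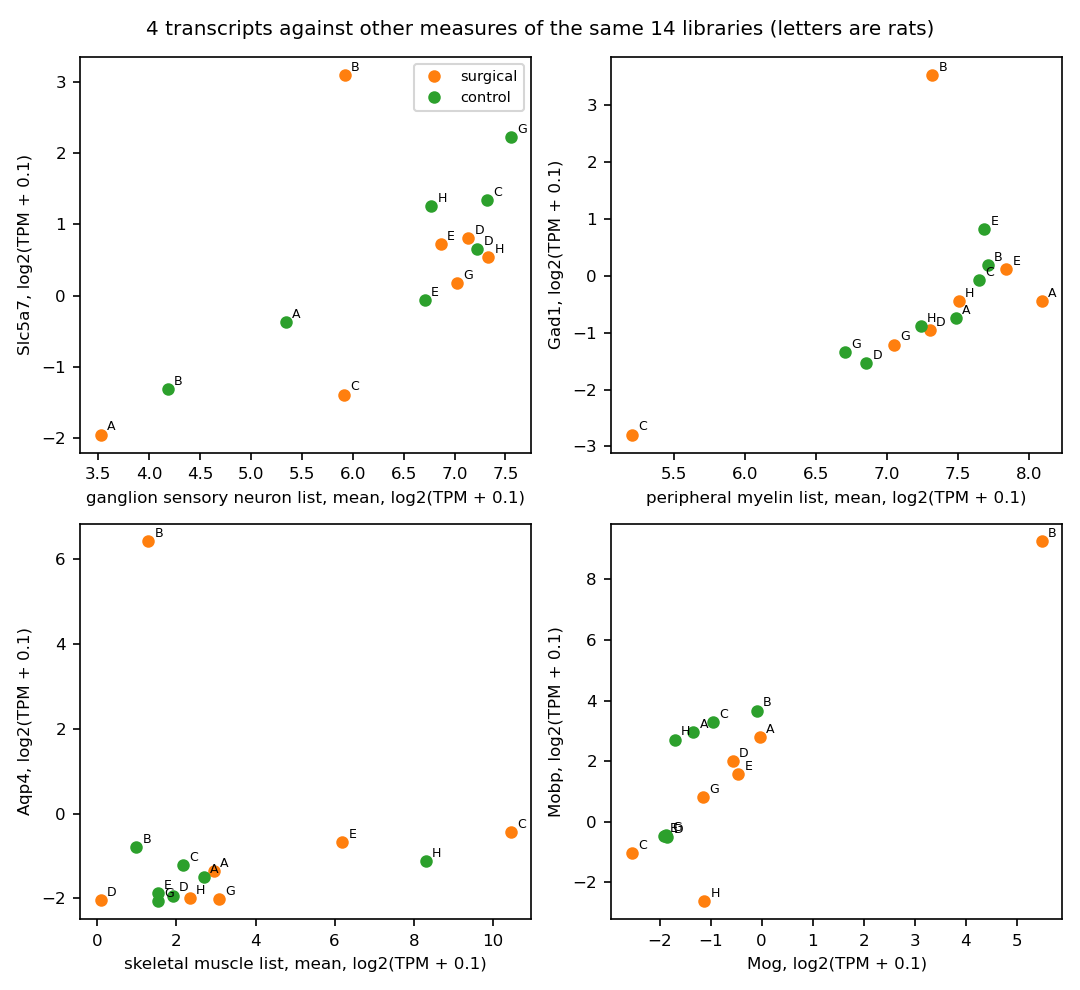
Slc5a7 against the mean of the ganglion sensory neuron list, Gad1 against the peripheral myelin list, Aqp4 against the skeletal muscle list, and Mobp against Mog, all as log2(TPM + 0.1), 1 point per library with the letter of its rat, surgical and control in different colours. The surgical library of rat B is the highest point in all 4 panels. It lies least far above the next library for Slc5a7, at 3.10 against 2.22 in the control library of rat G. The other 13 libraries gave r of 0.87, 0.88, 0.68 and 0.60.

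Differences between the sides were tested on the estimated counts with edgeR's quasi-likelihood test across all genes, with the rat as a block, and passed at a Benjamini-Hochberg adjusted p under 0.05. Gad2 and Chat had too few counts for the filter and were not tested, so 8 of the 10 members were. Of these 8, none passed over both times, at 6 weeks, at 8 weeks or in the difference between those times, and of all 17035 genes 0.0% passed in each of these 4 comparisons. At an unadjusted p under 0.05 the edgeR test gave 1 of 8 members over both times (2.42% of all genes), 3 at 6 weeks (3.21%), 0 at 8 weeks (1.06%) and 1 for the difference (1.48%). Without rat B these counts were 0, 1, 0 and 0 of 8, beside 2.48%, 2.42%, 1.33% and 1.31% of all genes. With rat B included, DESeq2, the other tool run on the counts, called 1 member at 6 weeks, Slc32a1, and none in the other 3.

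At 6 weeks all 8 members had positive log2 differences, with a median of 2.54, against -0.01 over all genes. Slc32a1 differed by 3.27 (SE 0.86, edgeR unadjusted p = 0.0059, adjusted p = 0.999), Mog by 2.98 (SE 0.89, unadjusted p = 0.011) and Opalin by 2.72 (SE 1.15, unadjusted p = 0.049). DESeq2 gave Slc32a1 3.29 (adjusted p = 0.0105) with rat B included, and was not run without that rat. In edgeR without rat B the median over the members was 0.87. Slc32a1 then differed by 2.14 (SE 0.86), Mog by 1.59 (SE 0.73) and Opalin by 0.89 (SE 0.84). Gad1 and Slc5a7 turned to -0.21 (SE 0.93) and -0.55 (SE 0.93). The log2 differences of TPM within rats A and E were 0.81 and 2.42 for Slc32a1 and 1.31 and 1.46 for Mog, against 5.28 and 5.58 in rat B. For Mobp they were -0.15 and 2.04 in rats A and E and 5.58 in rat B.

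At 8 weeks 5 of 8 members had positive log2 differences and the median was 0.12, against 0.01 over all genes. They ran from -1.33 (SE 0.91) for Slc5a7 to 0.68 (SE 0.67) for Slc32a1. Slc5a7 was lower on the surgical side in 3 of 4 rats, with rat D in the other direction. Mobp differed by -1.22 (SE 1.78), with -4.33 and -5.33 in rats C and H and 2.51 and 1.25 in rats D and G on the log2(TPM + 0.1) scale, so its sign differed between rats.

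**Figure D5:**
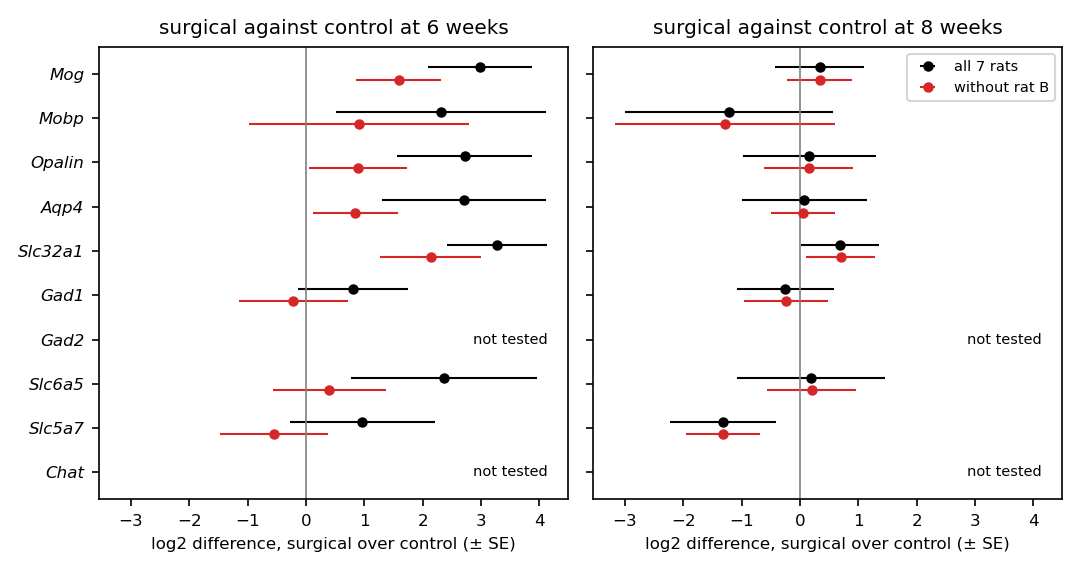
Log2 difference between surgical and control sides with its SE from the edgeR fit of all 7 rats (black) and without rat B (red), at 6 weeks (left) and 8 weeks (right). At 6 weeks Slc32a1 moves to 2.14 without rat B, against 3.27 with it, and Gad1 and Slc5a7 cross 0, while at 8 weeks the 2 fits lie close together.

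The change at 8 weeks was below that at 6 weeks in all 8 members, with a median difference of -2.57 on the log2 scale, and with -0.79 without rat B. Slc32a1 had the smallest p among the members (-2.58, SE 1.08, edgeR unadjusted p = 0.047, adjusted p = 1), and differed by -1.44 (SE 1.04) without rat B. Between rats on the surgical side, 8 against 6 weeks, 7 of 8 members had an unadjusted p under 0.05, where 6.56% of genes did, and none passed after adjustment (0.0% of 16606 genes, members' edgeR adjusted p = 0.671). Their log2 differences ran from -7.31 for Mobp to -1.83 for Slc5a7. Without rat B they ran from -2.42 for Mobp to 0.14 for Slc5a7, with -1.96 (SE 0.67) for Mog and -1.17 (SE 0.46) for Slc32a1. In that fit 2 of 8 members had an unadjusted p under 0.05, where 7.42% of genes did. The comparison of times on the surgical side and those of the sides use the same surgical libraries, rat B included.

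The control side, which holds none of the high values, was compared between 8 and 6 weeks in different rats, and 6 members passed the filter. None passed the test, where 25 of 16346 genes (0.153%) did, and 2 of the 6 had an unadjusted p under 0.05, where 31.2% of genes did. Gad1 averaged 0.458 ± 0.274 TPM in control libraries at 8 weeks (SD, n = 4) and 1.07 ± 0.589 TPM at 6 weeks (SD, n = 3), a log2 difference of -1.96 (SE 0.48, edgeR adjusted p = 0.094). Slc5a7 averaged 2.69 ± 1.32 TPM at 8 weeks (SD, n = 4) and 0.612 ± 0.283 TPM at 6 weeks (SD, n = 3), a log2 difference of 1.57 (SE 0.42, edgeR adjusted p = 0.101). Each 8-week control library was above each 6-week control library in Slc5a7, as in 35.0% of tested genes, and no member showed the opposite order, which 2.56% of genes did.

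Whole lists differed in 1 direction on the control side too. All 16 ganglion sensory neuron genes had positive differences on the control side, with a median of 0.87 and 5 at an unadjusted p under 0.05, a share near that of all genes, and all 9 peripheral myelin genes had negative ones, with a median of -1.05 and 8 at an unadjusted p under 0.05. All 12 skeletal muscle genes had positive differences (median 4.46, none at an unadjusted p under 0.05). The control library of rat H was far out: its muscle list mean was 8.30 on the log2(TPM + 0.1) scale. That mean was 1.52 to 2.16 in the other 8-week controls and 0.989 to 2.69 in the 6-week controls. All 8 microglial genes had negative differences (median -1.19, 3 at an unadjusted p under 0.05). No gene of these 4 lists passed after adjustment with edgeR. The part of other cell types in the Slc5a7 and Gad1 differences was not tested. DESeq2 called both members (Gad1 -1.93, adjusted p = 0.0049, and Slc5a7 1.61, adjusted p = 0.0052), beside 3133 of 16346 genes.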

How the data were processed

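RNA of 14 rat ganglion libraries was sequenced. The labels gave the molecule as polyA RNA and named ribosomal depletion in the extraction protocol. Per the submitters' processing notes FastQC, Trim Galore, Salmon and DESeq2 were used; versions and genome build are not given in the sources used here. The authors deposited estimated counts per gene, all whole numbers (0 were not), and TPM. Total counts were 18489118 to 28237574 per library, so 3 counts, the limit that a count of 0 allows, were 0.106 to 0.162 CPM, for counting error only. Columns left unused numbered 0. Sample titles gave rat, side and time; titles and library names exchanged letters C and D, and title letters were used. Each library is 1 side of 1 animal.

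The count test was the quasi-likelihood test of edgeR 4.0.16 (R 4.3.3; filterByExpr with a minimum count of 10, TMM scaling, robust dispersion, Benjamini-Hochberg over all genes). Sides were compared with the rat as a block and times between rats, in 6 comparisons, two-sided. The pairing comes from the labels, which name the same rat on both sides; deviations of paired libraries correlated by -0.41 to 0.75, and above 0.1 in 3 of 7 rats. Alternatives were DESeq2 1.42.0, limma 3.58.1 on log2 TPM, other filters, scalings and blocks, and each rat left out. Rats were left out in edgeR only. The edgeR, DESeq2 and limma steps were tested on simulated data. The members and lists were chosen with earlier results of these data known. Named genes were all members, the 5 genes most alike to each set of members, up to 4 genes per list with the highest TPM in the library with the highest member sum, and Prph and Acta1; a few genes that the rule also named are not reported here. Further list genes (Olig1, Olig2, Klk6, Mnx1, Lhx4, Glra1, Ccdc153, Slc47a1 and a few others) were chosen after their values were seen. Levels, correlations and promoter motifs were computed with Python 3.11.15.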

Additional observations from a re-analysis of the deposited data

Results flagged for a closer look

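Within the groups of 4 libraries at 8 weeks, 5 of 20 sets of 4 values had 1 library whose gap to the nearest other, as a share of the range of the group, passed Dixon's critical value of 0.829; chance flags about 1 in 20 groups. Aqp4 was high in the surgical library of rat C (0.638 TPM), with a gap of 0.980 of the range, in the library that also had the highest skeletal muscle sum. Gad2 was at 0 in the surgical library of rat H, with a gap of 0.852, which is a difference of 2 counts. On the control side Mog and Slc6a5 were both high in rat C (0.414 and 0.160 TPM), with gaps of 0.854 and 0.847, on 7 and 19 counts. Chat was high in the control library of rat D (0.0514 TPM), with a gap of 0.942, on 4 counts against 1 in each of the others.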

How the results depend on the processing

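The count of members called was 0 in each comparison and stayed 0 under most alternatives. DESeq2 called 1 at 6 weeks (Slc32a1) and 2 for the control side over time (Gad1 and Slc5a7), limma on log2(TPM + 1) called 1 there (Slc5a7, 1.15, adjusted p = 0.0475), and leaving out each rat in turn gave 0 to 2 there, with 2 without rat E (Gad1 adjusted p = 0.0471, Slc5a7 0.0318); over all alternatives the adjusted p ran from 0.0049 to 0.262 for Gad1 and from 0.0052 to 0.271 for Slc5a7, and that of Slc32a1 at 6 weeks from 0.0105 to 1. Without the replicate block no member was called, and Slc5a7 over both times turned to 0.16; Aqp4 at 8 weeks turned to -0.034 with limma on log2(TPM + 0.1). Leaving out each rat gave log2 ranges that crossed 0 over both times for Mobp (-0.20 to 1.31) and Gad1 (-0.23 to 0.65), at 6 weeks for Gad1 (-0.21 to 1.70) and Slc5a7 (-0.55 to 2.45), at 8 weeks for Mog (-0.024 to 0.86), Mobp (-2.80 to 0.21), Opalin (-0.61 to 0.65), Aqp4 (-0.50 to 0.60), Gad1 (-0.66 to 0.48) and Slc6a5 (-0.29 to 1.06), over time for Slc5a7 on the surgical side (-2.38 to 0.14) and for Slc32a1 on the control side (-1.44 to 0.093); those at 6 weeks and over both times came from rat B. Other single-gene values, likeness correlations included, kept their direction in 632 cases, and kept the call where a p was given. Over all genes DESeq2 called 44 at 6 weeks (5 higher, 39 lower), 6 over both times, 4 at 8 weeks, 5 for the difference and 8 on the surgical side over time, where edgeR called 0; without the block edgeR called 2 at 6 weeks. On the control side over time edgeR called 3 higher and 22 lower, DESeq2 1565 and 1568, limma on log2(TPM + 1) 3808 and 172, limma on log2(TPM + 0.1) 11 and 8, and edgeR without rat E 3861 and 2527, and 0 to 1 without any other rat. Limma on TPM moved the median of all genes there to 0.44 with 1 added and 0.56 with 0.1 added. The cause of these shifts was not tested. DESeq2 gave no p for 7 members on the surgical side over time. The ratio of the summed TPM in rat B surgical to the median of the others, 113, was 71.4 to 144 with each member left out and 75.1 as CPM of TMM-scaled libraries. Depth limits Gad2 and Chat, with 0 to 9 counts outside that library.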

Other observations

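Genes of body position were not among the lists, and the following were chosen after their values were seen. Hoxb13, a Hox gene expressed at the caudal end of the body axis, had 8.32 TPM and 184 counts in the surgical library of rat B, against 0 to 0.243 TPM and at most 7 counts in each of the other 13. Hoxc10, a Hox gene of lumbar and sacral levels, had 17.2 TPM in that library, against 3.23 to 10.3 TPM in the others. Hoxa9 had 9.50 TPM in it, within the 6.45 to 20.1 TPM of the others.

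The control library of rat B, from the other side of the same animal, had the second highest sum of the 10 transcripts, 16.4 TPM, of which Mobp made 12.6 TPM. It also had the highest values of Klk6 (0.824 TPM), Olig1 (0.644 TPM) and Opalin (0.312 TPM) outside the surgical library of rat B, on 14, at most 32, and 20 counts. The library with the highest level of Ptgds, a gene of meningeal cells, was the control of rat H at 14951 TPM; its sum of the 10 transcripts was 10.2 TPM.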
